A study of Rattus norvegicus with 6 samples.

Results

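The 10 genes described here, Pvalb, Calb1, Calb2, Runx3, Etv1, Maf, Mafa, Shox2, Whrn and Spp1, were read as identity genes of large myelinated neurons. These are the neurons of the dorsal root ganglion (DRG) that sense body position and touch. Not all 10 are confined to them: Calb1 is found in scattered DRG neurons, and macrophages also make the product of Spp1. The 10 genes were chosen by name, with earlier results of these data known. Each was found among the 43350 gene rows of the deposited table. For 9 of them 1 row carried the symbol, and for Mafa 2 rows did, of which the protein-coding row was used. All 10 were among the 26663 rows that entered the fit, which had a mean FPKM (reads scaled to row length and library size) of at least 0.5.

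Ganglia came from male Sprague-Dawley rats in 2 groups of 3. In the CCI group the left sciatic nerve was loosely ligated (chronic constriction injury), and in the sham group it was exposed but not tied. The labels list no treatment for sham rats and give no age. Lumbar DRG of the operated side were taken on day 11. Each library was read as a separate rat, as the methods describe, although the labels mention pooling. Whole ganglia were used, so each library mixed all classes of sensory neuron, uninjured ones included, with glia, vessels and immune cells, and a lower level in fewer cells cannot be told apart from less RNA per cell.

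Proprioceptors carry signals from muscle spindles and tendon organs, and low-threshold mechanoreceptors carry touch and vibration from the skin. Both belong to the large, neurofilament-rich neurons of the ganglion. Proprioceptors depend on neurotrophin-3 and its receptor TrkC, and the transcription factors Runx3 and Etv1 act in their specification and in the growth of their axons. Maf, Mafa and Shox2 are transcription factors of touch neurons. Parvalbumin, calbindin and calretinin, the products of Pvalb, Calb1 and Calb2, bind calcium, whirlin (Whrn) is a scaffold protein known from the hair cells of the inner ear, and osteopontin (Spp1) is a secreted phosphoprotein that macrophages and bone cells also make.

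The promoters of Pvalb, the classical marker of proprioceptors, and of Etv1, a factor of the same neurons, are shown because these genes had the smallest p-values of the 10. They are the 250 bases before the start in RefSeq's GRCr8, a build other than that of the count table, written 5′ to 3′ on the strand of the gene, at chr7:111666290-111666539 (minus strand) for Pvalb and chr6:61317179-61317428 (plus strand) for Etv1. Capitals mark TGCTGA, a motif bound by MAF proteins.
Pvalb: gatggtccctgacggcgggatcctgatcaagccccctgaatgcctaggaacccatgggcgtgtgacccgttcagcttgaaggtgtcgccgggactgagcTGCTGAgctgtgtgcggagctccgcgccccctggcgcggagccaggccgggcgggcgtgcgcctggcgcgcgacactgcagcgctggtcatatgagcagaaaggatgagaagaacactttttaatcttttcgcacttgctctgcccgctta
Etv1: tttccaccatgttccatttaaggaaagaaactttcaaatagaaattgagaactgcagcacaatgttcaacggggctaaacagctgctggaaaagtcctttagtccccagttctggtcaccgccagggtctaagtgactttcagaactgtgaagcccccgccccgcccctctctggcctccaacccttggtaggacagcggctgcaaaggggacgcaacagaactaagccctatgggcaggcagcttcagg
The Pvalb promoter held this motif 151 bases before the start, and the Etv1 promoter did not hold it on either strand. TGTGGT, the core of the RUNX motif, and CCGGAA, a core of ETS motifs, were in neither promoter on either strand. Of 33469 rat promoters of this length, 15.14% held TGCTGA, 14.47% held TGTGGT and 12.6% held CCGGAA, and the matches named here do not overlap. RefSeq promoters were matched for 6 of the 10 genes, 7 promoters in all since Runx3 had 2. Of the Runx3 promoters, 1 held TGTGGT at 135 and 127 bases before the start, on the opposite strand. No other match was found in the promoters of Runx3, Maf, Whrn and Spp1, and those of Calb1, Calb2, Mafa and Shox2 were not analysed here.

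The libraries held 75423546 to 87615743 counts, and TMM factors, edgeR's correction for library composition, lay between 0.988 and 1.01. CPM values below are counts scaled to a common library size with these factors. All 8 nerve injury markers, which the study had already reported as upregulated in these data, were higher in the CCI group. Their median log2 fold change was 2.72 (Atf3 3.47, Gal 4.49, Npy 6.14). Their summed level was 742, 532 and 464 CPM in CCI 1, 2 and 3 against 189 to 195 CPM in the sham group. The 10 pan-neuronal markers had a median log2 fold change of 0.0077, with 0 called by edgeR or DESeq2. At an unadjusted p under 0.05, 2 were higher (Tubb3 0.31, Prph 0.25) and 1 was lower (Snap25 -0.39). Their summed level, to which libraries were scaled in 1 alternative, was 7778, 7557 and 7456 CPM in CCI 1, 2 and 3. In sham 1, 2 and 3 it was 6357, 7452 and 7078 CPM, so that scaling lowers CCI levels against sham. Sham 1 held skeletal muscle RNA: 10 muscle markers summed to 443 CPM there, to 13.5 and 57.7 CPM in sham 2 and 3, and to 28.0, 15.9 and 10.6 CPM in CCI 1, 2 and 3. Of these markers 5 were called lower, beside 1.26% of all rows. Single libraries set this count: it was 0 without sham 1 (7 fitted), 10 without sham 2 and 1 without CCI 2 or without CCI 3. CCI 1 stood apart among the identity genes too, with the lowest level of its group for 7 of the 10.

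Parvalbumin RNA and Mafa RNA were lower after CCI and calbindin RNA was higher, while the other 7 genes did not pass both limits. A gene was called where edgeR's quasi-likelihood test gave an unadjusted p under 0.05 and the log2 fold change was at least 0.58 in size, the limits the study used. By this rule 2 of the 10 genes were lower, against 1.26% of all rows tested, and 1 was higher, against 2.57% of all rows. At an unadjusted p under 0.05 and any fold, 6 genes were lower (5.18% of all rows) and 1 was higher (5.57% of all rows). Every CCI library lay below every sham library for 7 genes (8.70% of all rows) and above for 1, Calb1 (8.63% of all rows). For Calb1 this separation was close to a tie, with CCI 3 and sham 2 both at 4.72 CPM when rounded. The groups overlapped for 2, Runx3 and Spp1. The median log2 fold change of the 10 genes was -0.25, with 8 below 0, beside 0.0055 over all rows. None of the 10 had a Benjamini-Hochberg adjusted p under 0.05 in the quasi-likelihood test, which 0.0938% of all rows did (25 rows), and the adjusted p-values below are from that test. By the same adjustment edgeR's exact test passed 1 of the 10, Pvalb, DESeq2 passed 2, Pvalb and Etv1, and limma passed 0.

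**Figure D1:**
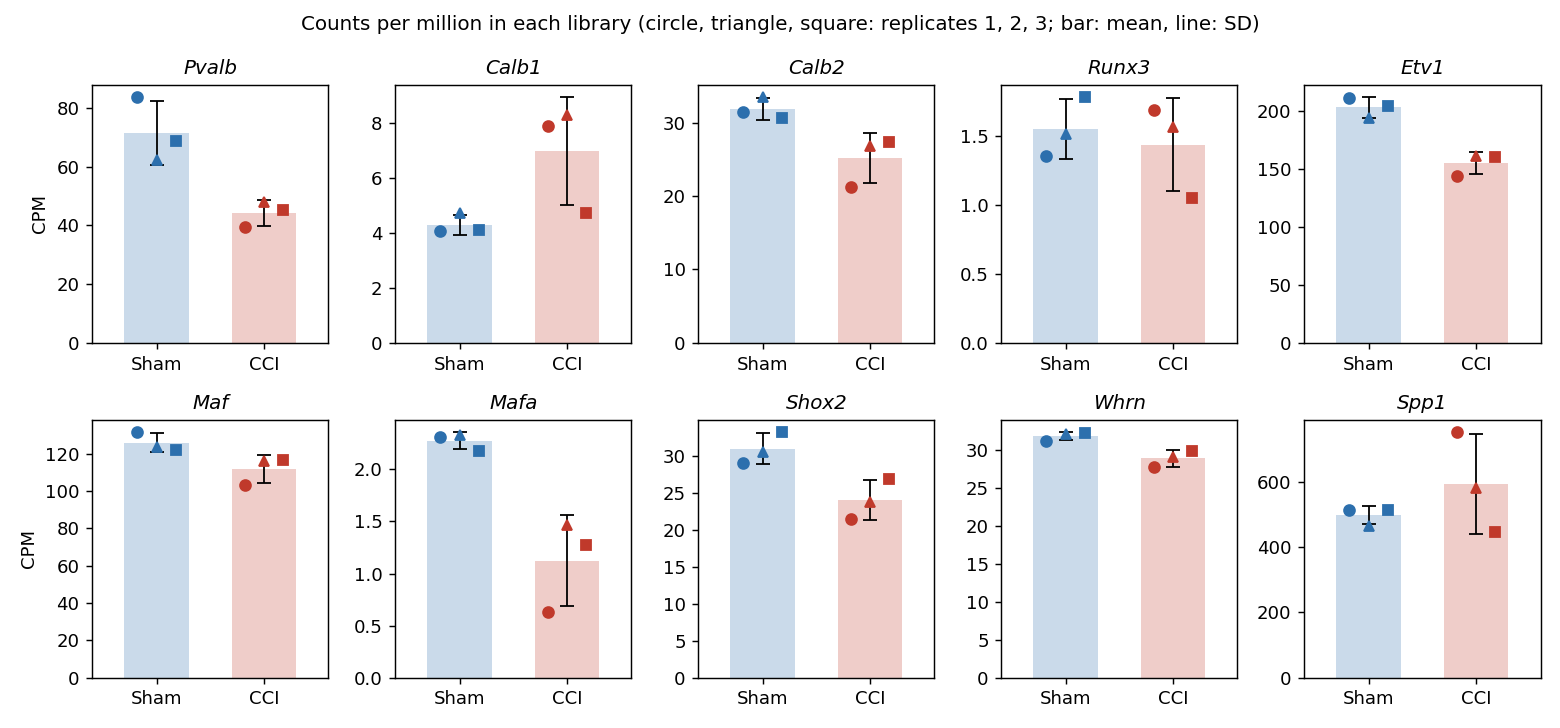
CPM (vertical axes, starting at 0) of the 10 genes in each of the 6 libraries, with sham on the left and CCI on the right of each panel, bars for means and lines for SD (n = 3). For Pvalb the CCI libraries sit at 39.3 to 48.1 CPM and the sham libraries at 62.2 to 83.7 CPM, and for Runx3 and Spp1 the points of the 2 groups overlap.

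Pvalb encodes parvalbumin, a calcium buffer of proprioceptors and of some touch neurons. Its level was 39.3, 48.1 and 45.2 CPM in CCI 1, 2 and 3 and 83.7, 62.2 and 68.6 CPM in sham 1, 2 and 3. All CCI libraries were below all sham libraries, sham 1 was the highest of the 6 and CCI 1 the lowest. CCI libraries averaged 44.2 ± 4.49 CPM and sham libraries 71.5 ± 10.996 CPM (SD, n = 3), so the CCI level was 61.8% of the sham level in the fit. The log2 fold change was -0.69 (SE 0.13, 95% interval -1.01 to -0.38), with an adjusted p = 0.144. The row, MSTRG.26189, lies on the minus strand of chromosome 7 from 119429019 to 119443633 and held 3189 to 3876 counts in the CCI libraries and 4933 to 7341 in the sham libraries.

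Pvalb is also a gene of fast muscle fibres, and in the sham group its order across libraries was that of the muscle markers. Without sham 1 its log2 fold change was -0.57, just short of the fold limit, so the call ended there. The groups were still apart without it: CCI 1 held 28.0 CPM of muscle markers and 39.3 CPM of Pvalb, and sham 2 held 13.5 CPM of muscle markers and 62.2 CPM of Pvalb. Of the muscle markers, Tnni2, a fast troponin, was at 0 in all 3 CCI libraries and at 8.64, 0.0631 and 1.16 CPM in sham 1, 2 and 3. The part of muscle RNA in the Pvalb difference was not tested.

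Calb1 encodes calbindin, a calcium buffer found in scattered DRG neurons. It was the 1 gene of the 10 that was called higher, at 7.90, 8.30 and 4.72 CPM in CCI 1, 2 and 3 and 4.07, 4.72 and 4.12 CPM in sham 1, 2 and 3. CCI 1 and 2 lay well above the sham libraries, while CCI 3 and sham 2 were level at the printed precision. The means were 6.97 ± 1.96 and 4.30 ± 0.362 CPM (SD, n = 3), or 162% of the sham level in the fit. The log2 fold change was 0.70 (SE 0.23, 95% interval 0.14 to 1.26), with an adjusted p = 0.362. The call was lost without CCI 1 (0.60), CCI 2 (0.55), sham 1 (0.66) or sham 3 (0.67), since the unadjusted p was then over 0.05. Without CCI 2 the fold was under the limit as well. Its row, MSTRG.21804, lies on the plus strand of chromosome 5 from 29538380 to 29562773, with 340 to 669 counts per library.

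Calb2 encodes calretinin, which marks large touch afferents. It was at 21.2, 26.8 and 27.4 CPM in CCI 1, 2 and 3 and at 31.5, 33.5 and 30.6 CPM in the sham libraries. The groups did not overlap, and CCI 1 was again the lowest. The log2 fold change of -0.34 (SE 0.11, 95% interval -0.61 to -0.07, adjusted p = 0.353) was under the fold limit. Its row is MSTRG.14707, chromosome 19, plus strand, 41482728 to 41509658. On the FPKM scale, which is per length, the ratio of Calb1 to Calb2 was 0.325, 0.271 and 0.151 in CCI 1, 2 and 3 and 0.113, 0.124 and 0.118 in sham 1, 2 and 3. All 3 CCI libraries had the higher ratio, and CCI 3 was the nearest to the sham group.

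Among the transcription factors of proprioceptors, Etv1 differed with the smallest p and Runx3 did not differ beyond its spread. Etv1 (Er81) is an ETS factor that proprioceptors need for their connections in the spinal cord. Its level was 144, 161 and 160 CPM in CCI 1, 2 and 3 and 211, 194 and 205 CPM in sham 1, 2 and 3. The groups were well apart, with means of 155 ± 9.45 and 203 ± 8.81 CPM (SD, n = 3). Its log2 fold change was -0.39 (SE 0.07, 95% interval -0.55 to -0.23), with an adjusted p = 0.114, the smallest of the 10 genes. The fold, 76.4% of the sham level, was under the limit, so Etv1 was not called. Its row, MSTRG.23974, spans chromosome 6 from 58467254 to 58558631 on the plus strand.

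Runx3, a Runt-domain factor of proprioceptor fate, was scarce, with 80 to 147 counts per library. It was at 1.69, 1.56 and 1.05 CPM in CCI 1, 2 and 3 and at 1.36, 1.51 and 1.78 CPM in the sham libraries. The groups overlapped, with the lowest value in CCI 3 and the highest in sham 3. In the fit the log2 fold change was -0.11 (SE 0.25, adjusted p = 0.926), and its 95% interval of -0.72 to 0.49 holds changes of the size seen for Pvalb. Its direction was reversed without CCI 3 (0.07) or without sham 3 (0.0013). The row, MSTRG.23060, lies on chromosome 5, plus strand, 153507093 to 153531137.

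Of the transcription factors of touch neurons, Mafa was called lower and Maf and Shox2 were lower by less than the fold limit. Mafa is a bZIP factor of rapidly adapting mechanoreceptors. It was at 0.628, 1.46 and 1.28 CPM in CCI 1, 2 and 3 and at 2.31, 2.33 and 2.18 CPM in sham 1, 2 and 3. The sham libraries agreed closely, and all CCI libraries were below them, CCI 1 the farthest. The means were 1.12 ± 0.438 and 2.28 ± 0.0836 CPM (SD, n = 3), so the CCI level was 49.4% of the sham level in the fit. The log2 fold change was -1.02 (SE 0.33, 95% interval -1.80 to -0.23), with an adjusted p = 0.347. The counts were low, 51, 118 and 97 in CCI 1, 2 and 3 and 203, 185 and 180 in sham 1, 2 and 3.

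The Mafa row, MSTRG.26089, covers chromosome 7 from 116780681 to 116781766 on the minus strand. A second row with the symbol, MSTRG.26088, lies on the plus strand from 116779254 to 116780842 and overlaps it. That row averaged 2.34 ± 0.483 CPM after CCI and 3.52 ± 0.509 CPM after sham surgery (SD, n = 3) and was also called lower, with a log2 fold change of -0.59 (SE 0.21, adjusted p = 0.401). The sources do not state whether strand was used in counting, so reads of the 2 rows may not be cleanly separated. With the rows summed, the log2 fold change of Mafa was -0.74 and it was still called.

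Maf (c-Maf) acts in the development of touch receptors. It was at 103, 116 and 116 CPM in CCI 1, 2 and 3 and at 132, 124 and 122 CPM in the sham libraries. The groups did not overlap, by a margin smaller than the range within either group. This gave a log2 fold change of -0.17 (SE 0.07, 95% interval -0.33 to -0.01, adjusted p = 0.446). The row, MSTRG.14780, is an assembled locus of 507978 bases on the minus strand of chromosome 19 (47688771 to 48196748), far longer than the other rows, so its count may include reads from beyond Maf itself.

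Shox2 is a homeodomain factor of TrkB-expressing touch neurons. It was at 21.5, 23.8 and 26.9 CPM in CCI 1, 2 and 3 and at 29.1, 30.6 and 33.3 CPM in sham 1, 2 and 3. The groups did not overlap, and CCI 1 was the lowest. This was a log2 fold change of -0.36 (SE 0.10, 95% interval -0.61 to -0.12, adjusted p = 0.289). Its row, MSTRG.16145, lies on the minus strand of chromosome 2 from 164117073 to 164127244.

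Whrn encodes whirlin, a PDZ scaffold found in proprioceptors as well as in hair cells. It was at 27.7, 29.1 and 29.9 CPM in CCI 1, 2 and 3 and at 31.2, 32.0 and 32.2 CPM in the sham libraries. The groups did not overlap, and the difference was the smallest among the genes whose groups were apart. In the fit it had a log2 fold change of -0.14 (SE 0.06, 95% interval -0.29 to 0.01, adjusted p = 0.503). Its row is MSTRG.22249, chromosome 5, minus strand, 79234348 to 79318049.

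Spp1 (osteopontin) had the highest level of the 10 genes per length. It was at 753, 583 and 447 CPM in CCI 1, 2 and 3 and at 515, 465 and 514 CPM in sham 1, 2 and 3. CCI 1 was the highest and CCI 3 the lowest of the 6 libraries, so the CCI group spanned the sham group. The means were 594 ± 154 and 498 ± 28.5 CPM (SD, n = 3), with a log2 fold change of 0.25 (SE 0.18, 95% interval -0.18 to 0.68, adjusted p = 0.700). Without CCI 1 the difference shrank to 0.05 on the log2 scale, and without CCI 3 it was 0.42, still under the fold limit. The row, MSTRG.9532, is on chromosome 14, minus strand, 6673686 to 6679901.

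Macrophages also make osteopontin, and within the CCI group their markers had the same order of libraries as Spp1. The nerve injury markers had that order too. In the sham group sham 3 was the highest for the macrophage markers, while Spp1 was level in sham 1 and 3. In CCI 1, 2 and 3 the 14 macrophage markers summed to 209, 185 and 146 CPM. In sham 1, 2 and 3 they summed to 109, 106 and 134 CPM. Of the 14, 7 were called higher, beside 2.57% of all rows, and the median log2 fold change was 0.64. C1qa was at 15.1, 11.5 and 8.36 CPM in the CCI libraries and at 3.61, 4.92 and 7.47 CPM in the sham libraries. None of the 14 was at 0 throughout, and their part in the level of Spp1 was not tested. Of the 5 bone markers, which share osteopontin with bone matrix, 2 were fitted, 0 were called by edgeR's quasi-likelihood test and 1 by its exact test and by DESeq2, and without CCI 3 the quasi-likelihood test called 1 too. Ibsp, a bone matrix protein, was at 4.82, 1.303 and 0.960 CPM in CCI 1, 2 and 3 and at 0.479, 1.21 and 0.824 CPM in the sham libraries, so the groups overlapped and CCI 1 alone was high.

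**Figure D2:**
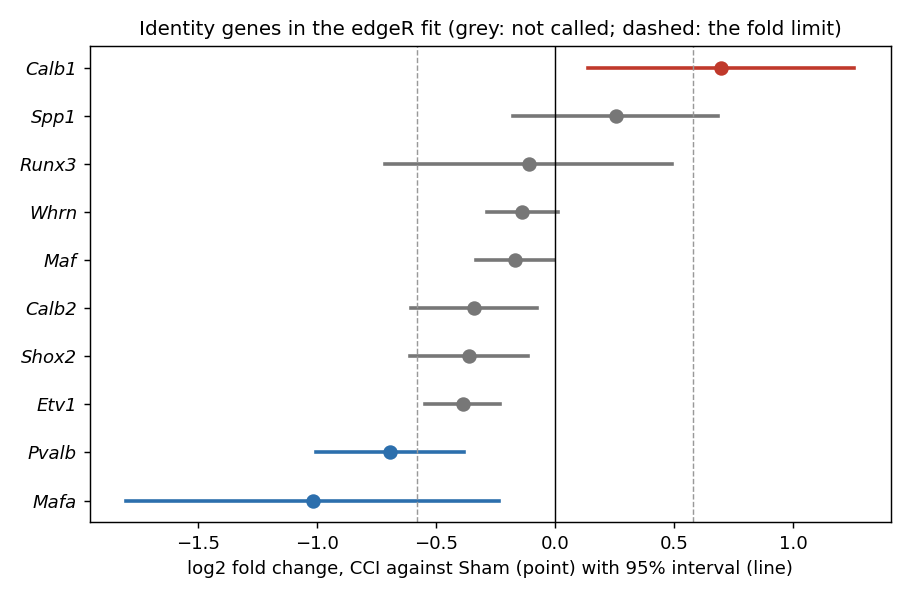
Log2 fold change of CCI against sham (horizontal axis) for each of the 10 genes, with the 95% interval of edgeR's quasi-likelihood fit as a line, blue for genes called lower, red for called higher and grey for not called. Mafa (-1.02) and Pvalb (-0.69) lie beyond the dashed limit of 0.58 on the lower side and Calb1 (0.70) on the higher side, and the intervals of Runx3, Whrn and Spp1 cross 0.

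Across lengths, the order of the genes was nearly the same in both groups. In the sham group the FPKM levels ran from Spp1 (297 ± 17.9) and Pvalb (109 ± 17.6) through Etv1 (22.0 ± 1.07), Calb2 (19.3 ± 0.880), Maf (9.60 ± 0.469), Shox2 (8.94 ± 0.549) and Whrn (5.93 ± 0.0553) to Calb1 (2.28 ± 0.187), Mafa (1.89 ± 0.0773) and Runx3 (1.14 ± 0.150). Maf and Shox2 were the only neighbours there whose libraries overlapped. In the CCI group Spp1 was at 358 ± 91.0 FPKM, Pvalb at 68.3 ± 7.11, Etv1 at 16.98 ± 1.09 and Calb2 at 15.4 ± 2.13, the last pair overlapping. At the low end of the CCI group Runx3 (1.06 ± 0.249 FPKM) and Mafa (0.939 ± 0.373 FPKM) overlapped and stood in the opposite order.

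**Figure D3:**
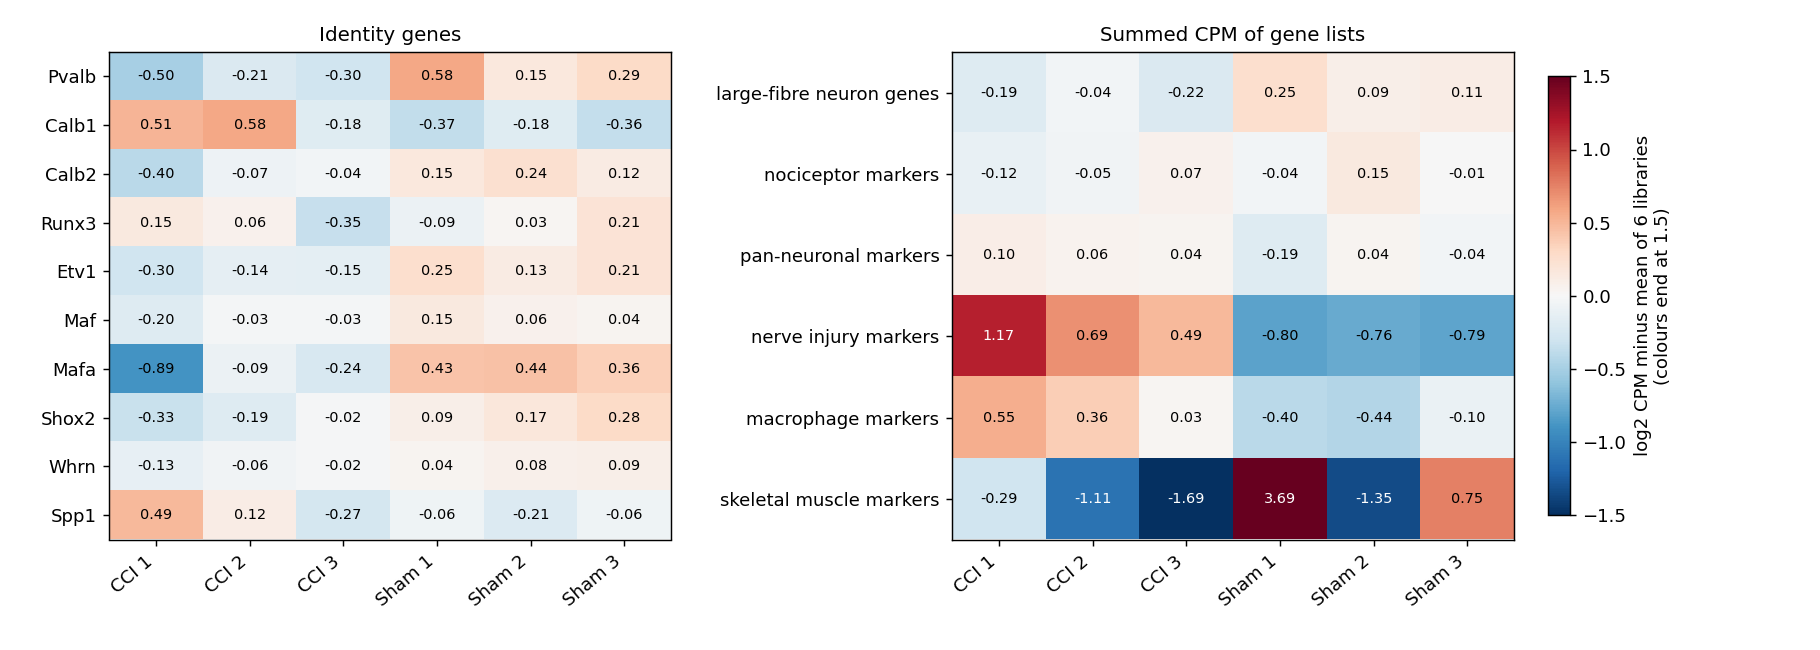
Log2 CPM of each library minus the mean of the 6 libraries, as colours and printed values, for the 10 genes (left) and for the summed CPM of 6 gene lists (right), with the colours ending at 1.5. CCI 1 is the lowest library for Pvalb (-0.50), Mafa (-0.89) and Calb2 (-0.40) and the highest for the injury markers (1.17), and sham 1 stands out for the muscle markers (3.69).

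Libraries of the CCI group differed among themselves. CCI 1 was the lowest of its group for Pvalb, Calb2, Etv1, Maf, Mafa, Shox2 and Whrn, and CCI 3 was the lowest for Calb1, Runx3 and Spp1. CCI 1 also had the highest sums of injury and macrophage markers and the lowest sum of the 6 Schwann cell markers in its group, 6255 CPM against 6898 and 8649 CPM in CCI 2 and 3. Without CCI 1 the log2 fold change was -0.62 for Pvalb and -0.73 for Mafa, and both were still called. With CCI 1 and sham 1 left out together, a setting chosen after seeing the data, Pvalb was at -0.49 and Calb1 at 0.56, both short of the fold limit, and Mafa at -0.72 was still called.

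**Figure D4:**
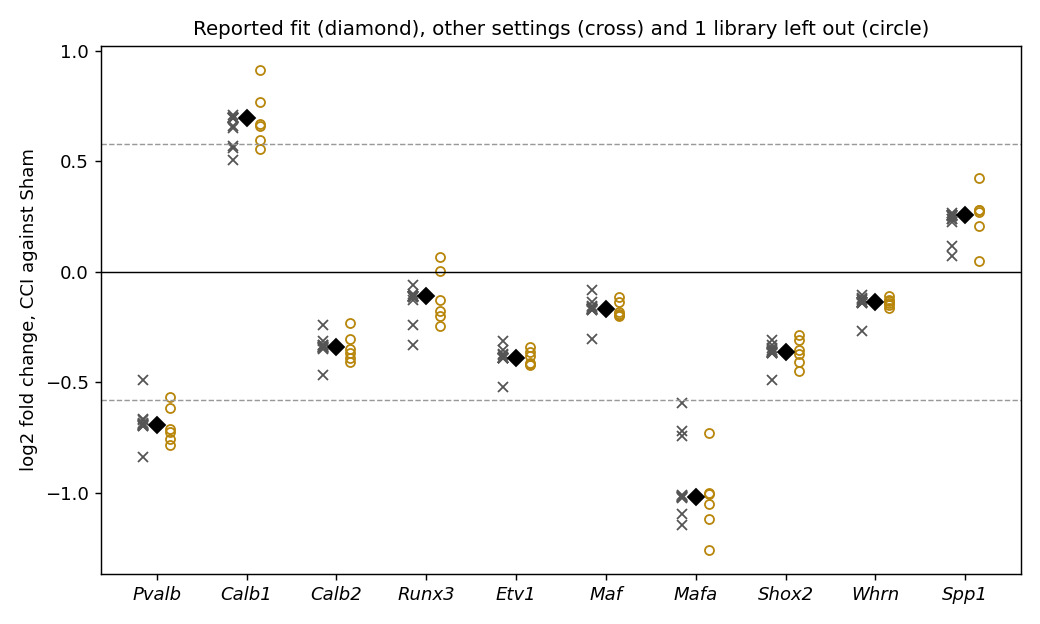
Log2 fold change of CCI against sham (vertical axis) for each gene in the reported fit (diamond), in other settings (cross) and with 1 library left out (circle), with dashed lines at the fold limit of 0.58. Pvalb ranges from -0.84 to -0.49, Mafa from -1.26 to -0.60 and Calb1 from 0.51 to 0.91, and Runx3 has values on both sides of 0.

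A wider list of 28 other genes of large-fibre neurons was read beside the 10. Of these, 26 were found and fitted, 22 had a log2 fold change below 0, and the median was -0.26, beside 0.0055 over all rows. At the study's limits 1 was lower, against 1.26% of all rows, and 0 were higher, against 2.57% of all rows. At an unadjusted p under 0.05 and any fold 13 were lower (5.18% of all rows) and 1 was higher (5.57% of all rows). Genes called lower numbered 5 with libraries scaled to the pan-neuronal markers and 2 without CCI 2, CCI 3 or sham 1, and 1 was called higher without CCI 3. The groups did not overlap for 15 that were lower (8.70% of all rows). Nor did they for 1 that was higher (8.63% of all rows), Nxph1 (0.52), whose row joins several genes. The 12 nociceptor markers, genes of the small pain-sensing neurons of the same ganglia, had a median log2 fold change of -0.14, with 0 called by edgeR or DESeq2 in all 6 libraries, 1 called higher without sham 2 and 6 at an unadjusted p under 0.05 (4 lower, 2 higher), and whether the 2 lists differ was not tested. Among nociceptor markers Trpa1, an irritant channel, was at 0.36 (adjusted p = 0.222).

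Hapln4, a link protein of the matrix around synapses, was the large-fibre gene called lower. It was at 6.54, 20.8 and 17.2 CPM in CCI 1, 2 and 3 and at 33.0, 36.7 and 39.4 CPM in sham 1, 2 and 3, with a log2 fold change of -1.29 (SE 0.39, adjusted p = 0.321). CCI 1 was the lowest library, as it was for Mafa. Nefh, the heavy neurofilament chain of large axons, was at 2170, 2584 and 2426 CPM in the CCI libraries and at 3272, 3529 and 3675 CPM in the sham libraries, a log2 fold change of -0.54 (SE 0.08, adjusted p = 0.103) that was under the fold limit. The sodium channel gene Scn1a was at 157, 170 and 185 CPM in the CCI libraries and at 246, 264 and 228 CPM in the sham libraries (log2 fold change -0.53, SE 0.08, adjusted p = 0.109). For both genes the groups were clearly apart. The nuclear receptor gene Esrrg had a log2 fold change of -0.49 (adjusted p = 0.132), and Ntrk3, which encodes TrkC, had -0.24 (adjusted p = 0.385).

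**Figure D5:**
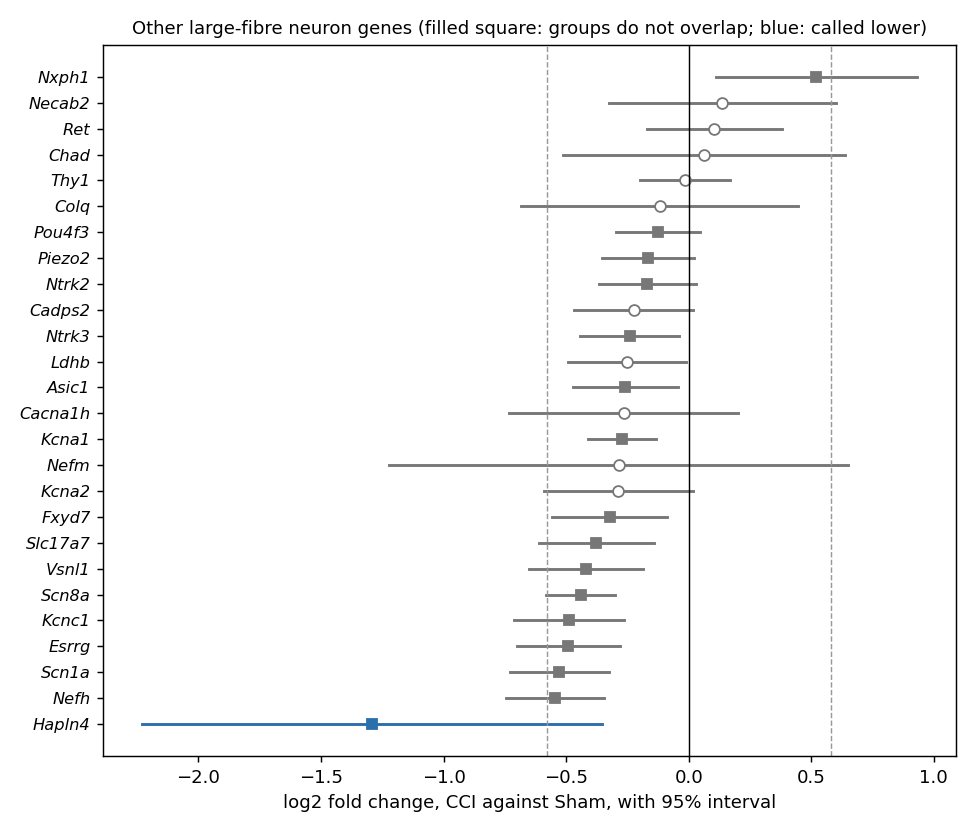
Log2 fold change of CCI against sham (horizontal axis, points) with the 95% interval (lines) for the 26 fitted large-fibre genes outside the 10, with filled squares where the groups do not overlap, open circles where they do, and blue for the gene called lower. Of the 26 points, 22 lie below 0, and only Hapln4 (-1.29) is beyond the dashed limit with a p under 0.05.

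Genes related to the 10 by family or partnership were read in the same way, beside 1.26% of all rows called lower and 2.57% called higher. Of the 10 fitted relatives of Runx3, Maf, Mafa and Etv1, 1 was called higher and 0 lower, with a median log2 fold change of -0.02. That gene, Runx2, a bone and cartilage factor of the Runx family, was at 9.85, 13.5 and 10.03 CPM in CCI 1, 2 and 3 and at 8.30, 6.01 and 7.73 CPM in the sham libraries (0.60, SE 0.18, adjusted p = 0.324). The call was lost without CCI 2 or without sham 2, with limma and with scaling to the pan-neuronal markers, and 1 relative was called lower without CCI 2, without CCI 3 and with that scaling. Etv4, an ETS factor close to Etv1, had a log2 fold change of -0.52 (adjusted p = 0.356).

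Of the 10 fitted EF-hand relatives of the calcium-binding genes, 1 was called lower and 0 higher, with a median of -0.09. It was Kcnip3 (DREAM), a calcium sensor that binds potassium channels, at 43.4, 84.5 and 88.2 CPM in CCI 1, 2 and 3 and at 116, 133 and 121 CPM in the sham libraries (log2 fold change -0.78, SE 0.26, adjusted p = 0.360). CCI 1 was far below CCI 2 and 3 here, and the call ended without CCI 1 or without sham 2. Without CCI 2, without sham 1 or with scaling to the pan-neuronal markers 2 of the EF-hand relatives were called lower. Of the 8 listed whirlin partners 4 were fitted, all 4 with a log2 fold change below 0 (median -0.12), 0 called and 0 at an unadjusted p under 0.05. Of the 8 receptors of osteopontin 0 were called by edgeR, with a median of 0.15 and 3 at an unadjusted p under 0.05 (2 higher, 1 lower), and 1 was called higher without CCI 1 or without CCI 3. Cd44, the non-integrin receptor, was at 372, 281 and 265 CPM in the CCI libraries and at 219, 224 and 209 CPM in the sham libraries (0.49, adjusted p = 0.263). Of the integrin beta chains, Itgb1 had 0.35 (adjusted p = 0.109) and Itgb5 had -0.24 (adjusted p = 0.359). In all, 6 of the 8 receptors had a log2 fold change above 0 and 2 below.

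The protein-coding genes whose profile over the 6 libraries was nearest to each called gene were found among 12987 by the root mean square difference of centred log2 CPM, as a description. Nearest to Pvalb were Spc25 (0.111), Slc16a14 (0.112) and Sema7a (0.113). For Mafa they were Krt28 (0.104), Kcnip3 (0.121) and Pla2g4e (0.125). Fcgr2b (0.0602), a receptor for immunoglobulin G on macrophages and B cells, was nearest to Calb1, followed by the joined row Nicn1/Amt (0.106) and Enc1 (0.107).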

How the data were processed

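The authors mapped clean reads of rRNA-depleted, paired-end libraries to a rat genome they call V101 and assembled transcripts; the submitters' processing notes list HISAT2 2.0 and StringTie 1.3.0. The deposited count values are whole reads per gene row, not normalized. The deposited FPKM values scale reads to row length and library size, in rows with few reads not in a fixed ratio to the counts, and show 0.0001 where no read was counted. Coordinates are those of the deposited table. Library totals were 75423546 to 87615743, so that 3 counts stood for 0.0342 to 0.0394 CPM. Rows without a symbol numbered 6849 (5.37% to 5.72% of counts). Within groups, every pair of libraries differed beyond sampling noise (chi-square over degrees of freedom 57.3 to 84.2).

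Counts were tested with edgeR 4.0.16 (quasi-likelihood, TMM, trended prior) in R 4.3.3 over rows whose mean FPKM was 0.5 or more, with Benjamini-Hochberg adjustment over all of them, after the scripts were tested on simulated data. Alternatives used limma 3.58.1 and DESeq2 1.42.0, other scalings, filters and rows, a replicate block, and each library left out. Since the smallest p of an exact permutation test on 3 and 3 rats is 0.1, p-values were taken from that fit. Python 3.11.15 with matplotlib 3.10.9 drew the figures.

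The 10 genes and the 15 gene lists were chosen with earlier results of these data known. A gene's row was the protein-coding one, then the one with the largest total. Genes named from a list are those called and up to 4 with the largest fold change in size. For each called gene the 3 nearest profiles are named. Ntrk3 and Slc32a1 were named after their values were seen, and some genes the rule names are not reported here.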

Additional observations from a re-analysis of the deposited data

How the results depend on the processing

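Over 18 alternatives Mafa was called lower in all 18, Pvalb in 16 (not without sham 1 or with both first replicates left out together) and Calb1 higher in 11. No alternative called any of the other 7 genes. Runx3 was reversed without CCI replicate 3 (0.069) and without sham replicate 3 (0.0013), and with 1 library left out it was lowest without CCI replicate 1 (-0.24). Genes called higher among the 10 numbered 0 with limma on log2(FPKM + 1), with scaling to pan-neuronal markers and with both first replicates left out, where 1 was lower. With 1 library left out they were 0 to 1 higher and 1 to 2 lower. Over all rows, 686 higher and 336 lower became 410 and 161 with limma on log2(FPKM + 1), 434 and 649 with pan-neuronal scaling, and 332 and 112 among protein-coding rows. Leaving out 1 library gave 545 to 763 higher and 308 to 416 lower. Pan-neuronal scaling moved the median of all rows from 0.0055 to -0.13, and the cause of the other changes was not tested. A replicate block gave 617 higher and 318 lower rows and changed no call among the 10 genes (Pvalb -0.69), while Runx2 was not called with it. Libraries with the same number did not deviate together (correlations -0.0112, -0.0261 and -0.0745), so the numbers were not taken as pairs. Mafa (51 to 203 counts a library) and Runx3 (80 to 147) rest on the fewest counts of the 10 genes.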

Other observations

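Other cell types of the ganglion were read from lists that belong to no comparison of the identity genes. The 6 satellite glia markers had a median log2 fold change of 0.03 and the 6 Schwann cell markers -0.14, with 0 called in either list by edgeR or DESeq2 and 1 and 0 at an unadjusted p under 0.05. With libraries scaled to the pan-neuronal markers, edgeR called 1 satellite glia marker lower. Within satellite glia, Cdh19, a cadherin of glial precursors, was at 376, 296 and 321 CPM in CCI 1, 2 and 3 and at 279, 248 and 243 CPM in the sham libraries (0.37, adjusted p = 0.282 in edgeR's quasi-likelihood test), and Fabp7, a fatty acid binding protein of satellite glia, was at -0.54 (adjusted p = 0.537). Of the 10 T and NK cell markers 1, Cd4, was fitted and called higher (0.68, adjusted p = 0.172), a gene that rat macrophages also express, and with that scaling it was at 0.55 and not called. Of the 8 markers of the central nervous system 1, the myelin gene Mog, was fitted and not called (0.32, adjusted p = 0.471), and Slc32a1, the vesicular transporter of inhibitory neurons, was at 0 in all 6 libraries.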
